A study of Mus musculus with 3 samples.

Results

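The cells described here are *Trp63*-positive epithelial cells of the mouse larynx that carried UMIs of at least 4 of 7 genes, *Orm1*, *Hbegf*, *Atf3*, *Fosl1*, *Gpnmb*, *Slc25a48* and *Tmprss11e*, and had low keratin counts. A UMI is a molecular tag that counts 1 captured mRNA molecule. A member had 500 to 8000 detected genes, 1000 to 40000 UMIs, at most 8% mitochondrial UMIs and at least 1 *Trp63* UMI. It also had fewer than 40 *Krt5* plus *Krt14* UMIs and fewer than 20 *Krt13* UMIs in every 10000 UMIs of the cell, and barcodes with UMIs of all of *Krt5*, *Ltf*, *Scgb3a1* and *Dcn* were left out as mixed. This rule kept 333 cells (97, 185 and 51 in libraries 1, 2 and 3) of 27045 *Trp63*-positive cells and 41033 cells in all. The name first given to this group was injury-response basal cells. No animal behind these libraries was injured, so the cells are called members of the panel-positive group below, after the genes that define them.

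The study sorted tdTom+ cells from larynges of Lrig1CreERT2/+; ROSA LSL-tdTom/+ mice and measured them by droplet single-cell RNA sequencing. The Lrig1CreERT2/+ line was kept on a C57BL/6 J background, and the background of the ROSA LSL-tdTom line is not given in the sources used here. Both alleles and the tamoxifen (TX) given on 2 consecutive days were shared by every animal, and tissue was taken 1 day after recombination, so all 3 libraries are a single condition and no untreated group was sequenced. The age of the mice is not given in the sources used here. Each library pooled 10 larynges, 5 from males and 5 from females, so the libraries are separate pools and an animal cannot be told from its neighbours in the pool. The reporter follows Cre made from the *Lrig1* locus in any cell type. Larynges were minced and digested with enzymes before sorting, and the gates were set on wild-type and ROSA LSL-tdTom/+ tissue.

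TP63, the protein of *Trp63*, is the transcription factor that marks basal cells, the cells that rest on the basement membrane of squamous and airway epithelium and renew the layers above. In skin and airway, wounding and tissue handling switch on immediate-early genes within minutes. These encode FOS and JUN proteins, which pair to form the transcription factor AP-1, and *Atf3* and *Fosl1* encode relatives of these proteins. *Hbegf* encodes heparin-binding EGF-like growth factor, a ligand of the EGF receptor that proteases release from the cell surface. LRIG1, the protein whose gene drives the reporter, lowers signalling through that receptor family.

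Of the 7 panel genes and the 12 named genes that rose most against depth-matched cells, 15 were found by symbol in a RefSeq promoter table. The following 3 promoters are shown as examples of those that hold a sequence bound by factors of the families that the panel represents. *Atf3* is in the panel, and *Plaur* and *Chit1* rose in members outside the rule. Each is the 250 bases before the RefSeq start, placed in GRCm39 by exact match and written 5′ to 3′ on the strand of the gene, with the motif in capitals.
Atf3 (chr1:190915531-190915780, minus strand): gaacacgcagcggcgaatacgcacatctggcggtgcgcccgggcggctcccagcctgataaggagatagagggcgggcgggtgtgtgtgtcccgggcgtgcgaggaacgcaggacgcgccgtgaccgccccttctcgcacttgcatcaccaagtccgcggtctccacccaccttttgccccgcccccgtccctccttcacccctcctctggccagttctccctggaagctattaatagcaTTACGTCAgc
Plaur (chr7:24161658-24161907, plus strand): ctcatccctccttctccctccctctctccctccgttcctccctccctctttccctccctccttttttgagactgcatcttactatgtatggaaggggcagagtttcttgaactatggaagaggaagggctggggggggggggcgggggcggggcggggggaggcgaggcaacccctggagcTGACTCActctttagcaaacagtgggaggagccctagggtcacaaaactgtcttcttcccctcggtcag
Chit1 (chr1:134038730-134038979, plus strand): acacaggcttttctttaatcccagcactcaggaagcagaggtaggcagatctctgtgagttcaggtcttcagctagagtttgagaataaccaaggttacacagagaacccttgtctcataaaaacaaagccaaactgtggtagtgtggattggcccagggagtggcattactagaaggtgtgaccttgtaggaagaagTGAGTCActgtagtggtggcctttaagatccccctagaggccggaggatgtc

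The capitals mark TTACGTCA, an ATF/CREB type of site, at 10 to 3 bases before the *Atf3* start. In *Plaur* they mark the AP-1 type of site TGACTCA, 69 to 63 bases before the start. In *Chit1* the same site lies on the opposite strand, written TGAGTCA, 52 to 46 bases before the start. On both strands, TGACTCA was found in 4.46% of 32851 promoters of this length, TTACGTCA in 0.447% and the CREB site TGACGTCA in 1.55%. TGACTCA was also in the promoter of the rise *Igfbp2*, which is not shown. TTACGTCA was also in the promoter of the falling gene *Cacnb2*, and TGACGTCA in those of the rise *Fscn1* and the fall *Kctd8*. The broader AP-1 form TGANTCA, which includes TGACTCA, was in 6.75% of all promoters, in 0 of the 3 panel genes in the table, in 3 of the 12 named rises (*Plaur*, *Chit1* and *Igfbp2*) and in 1 of the 6 named falls in the table (*Kcnip4*). TGATGNAA, the form bound by C/EBP and ATF4 pairs, was in 3.45% of promoters and in those of *Atf3* and *Lipm*. These matches describe letters in a window and were not tested as sites.

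The genes of the rule chose the members, so their values are given as a description. Among the 333 members, *Hbegf* had a UMI in 84.4% of cells and *Gpnmb*, which encodes a lysosomal and cell-surface glycoprotein, in 79.0%. *Atf3* had one in 70.3%, the serine protease gene *Tmprss11e* in 67.9%, and *Slc25a48*, a mitochondrial carrier gene, in 62.5%. *Orm1*, the gene of an acute-phase plasma protein, had a UMI in 36.6% and *Fosl1* in 30.03%, so these last 2 marked a minority of the cells. In the depth-matched cells described below the 7 shares were between 3.30% (*Fosl1*) and 26.7% (*Hbegf*). The panel was not carried alike in the 3 libraries. *Orm1* was found in 27.8%, 45.9% and 19.6% of members in libraries 1, 2 and 3, and *Fosl1* in 35.1%, 31.9% and 13.7%, whereas *Hbegf* lay between 82.7% and 86.6%.

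**Figure D1:**
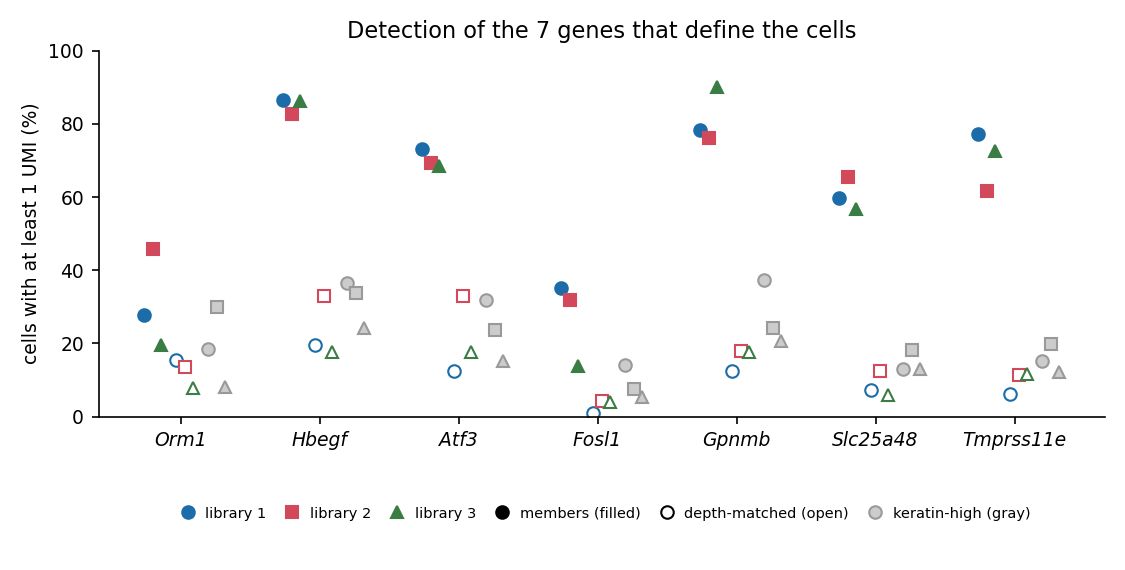
Share of cells (percent) with at least 1 UMI of each of the 7 panel genes, in members (filled), depth-matched keratin-low *Trp63*-positive cells (open) and keratin-high cells (gray), 1 symbol for each of the 3 libraries. *Hbegf* and *Gpnmb* were found in most members of every library, and *Fosl1* in 13.7 to 35.1% of them. The rule chose the members on these genes.

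The group had no sharp edge. Of the members, 250 carried exactly 4 panel genes, 65 carried 5, 17 carried 6 and 1 carried all 7, while 888 keratin-low *Trp63*-positive cells just outside the rule carried 3. The members used 48 different sets of panel genes. The commonest, *Hbegf* with *Atf3*, *Gpnmb* and *Tmprss11e*, was held by 40 cells (12.01%), and *Hbegf* with *Gpnmb*, *Slc25a48* and *Tmprss11e* by 30 cells (9.01%). In 254 members fewer than 4 panel genes reached 2 UMIs, so their place in the group rests on at least 1 gene seen as a single molecule. The cells with exactly 3 panel genes had *Hbegf* in 60.9%, *Gpnmb* in 63.5%, *Atf3* in 53.4% and *Fosl1* in 11.04%, against 81.2%, 76.4%, 65.2% and 24.0% in members with exactly 4. On the keratin side, the median of *Krt5* plus *Krt14* was 14.6 UMIs per 10000 in members and 9.65 in the depth-matched cells described below. Between 30 and 40 lay 57 members, and 44 cells with 4 or more panel genes lay just outside at 40 to 50. *Krt13* was at 0 UMIs in 188 members, and 20 members had exactly 1 *Trp63* UMI.

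The rule kept *Trp63*-positive cells, so basal markers it did not read are given as a description that cannot test the basal label. *Krt15*, a keratin gene of basal cells, stood at 5515, 3746 and 8448 CPM (UMIs of a gene per 1000000 UMIs of the summed cells) in members of libraries 1, 2 and 3, and the linker gene *Dst* at 1064, 1095 and 1027 CPM. *Col17a1*, a hemidesmosome collagen gene, stood at 345, 240 and 390 CPM and *Itgb4*, its integrin partner, at 392, 348 and 427 CPM. The 7 basal markers, *Trp63*, *Krt5* and *Krt14* of the rule among them, summed to 9703, 7367 and 13364 CPM. In all other *Trp63*-positive cells they summed to 7075, 7148 and 10692 CPM. Suprabasal markers, given below, were also higher in members than in depth-matched cells. Basal cells were thus not told apart from the layer above. Marker sums of other cell types differed in level. The 6 T cell markers summed to at most 1.27 CPM, the 6 neutrophil markers to at most 0.984 CPM and the 6 endothelial markers to between 0.808 and 5.41 CPM. The 10 macrophage markers summed to 113, 83.3 and 38.8 CPM, with *Mrc1* at 0 in all 3 libraries and *C1qb* at 0 in libraries 1 and 3. The 6 fibroblast markers, *Dcn* of the rule among them, summed to 443, 44.9 and 152 CPM. Ciliated markers summed to 189, 92.6 and 212 CPM, against 218, 172 and 155 CPM in the depth-matched cells described below, and secretory markers were higher still and are given with the falls.

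The members were a small and uneven share of the *Trp63*-positive cells. They made up 97 of 6350 in library 1 (1.53%, 95% Wilson interval 1.25 to 1.86%), 185 of 4775 in library 2 (3.87%, 3.36 to 4.46%) and 51 of 15920 in library 3 (0.320%, 0.244 to 0.421%). The mean was 1.91% ± 1.81 (SD, n = 3 libraries), the intervals of the 3 libraries did not overlap, and library 2 was highest and library 3 lowest. Intervals cover counting error only. Of all cells the shares were 0.773%, 2.59% and 0.239%. The denominator was deepest in library 2, with a median of 17335 UMIs in its *Trp63*-positive cells against 12634 and 14283 in libraries 1 and 3. When every cell was thinned to 10000 UMIs, shallower cells left out, 36 of 3630 cells (0.992%), 58 of 3497 (1.66%) and 10 of 10581 (0.0945%) still met the rule, in the same order. At 5000 UMIs it kept 11 of 4246 (0.259%), 11 of 3719 (0.296%) and 1 of 12311 (0.00812%), and libraries 1 and 2 could no longer be told apart.

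**Figure D2:**
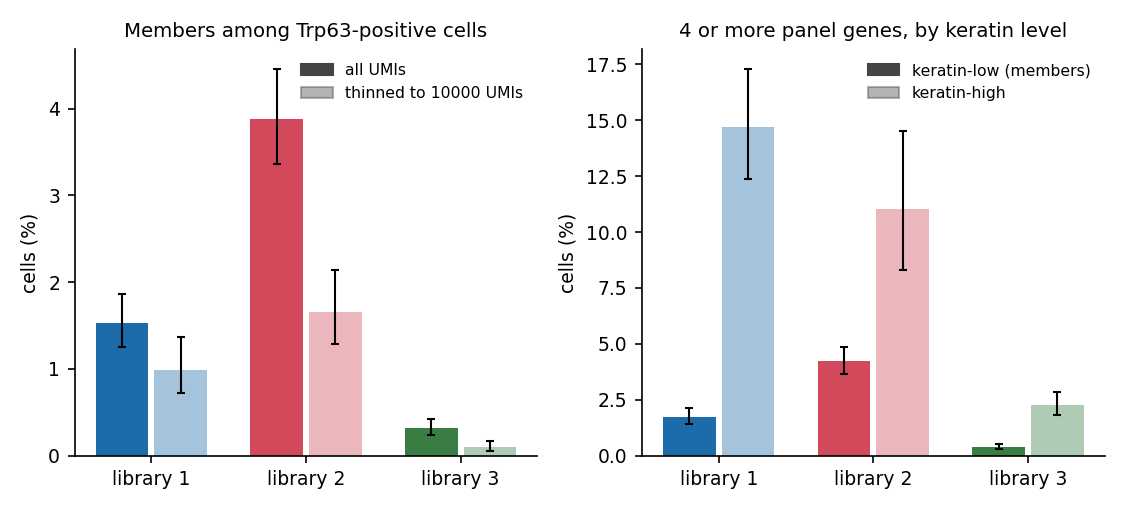
Left, members as a share (percent) of *Trp63*-positive cells in each of the 3 libraries, with all UMIs and with each cell thinned to 10000 UMIs. Right, cells with 4 or more panel genes as a share of keratin-low and of keratin-high *Trp63*-positive cells. Error bars are 95% Wilson intervals, and library 3 is lowest in each of the 4 sets of bars.

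The panel was not particular to keratin-low cells. Among *Trp63*-positive cells at or above a keratin limit, 117 of 797 (14.7%), 43 of 390 (11.03%) and 72 of 3177 (2.27%) carried 4 or more panel genes, a larger share than among keratin-low cells in each library (1.75%, 4.22% and 0.4002%), with library 3 again lowest. Keratin-high cells were also deeper, with medians of 15735, 22293 and 17628 UMIs. Outside the epithelium 4 panel genes were found in 0 of 513 endothelial-like cells, which at 3 counts allows a share of up to 0.585% (Wilson upper limit 0.743%), in 1 of 2238 satellite-like cells and in 3 of 4191 fibroblast-like cells. These classes are shallower, so the 768 fibroblast-like cells of all libraries with at least 15000 UMIs (median 17942) are closer in depth to members. Of these, 3 (0.391%, 0.133 to 1.14%) carried 4 or more panel genes. Of 45 satellite-like cells of that depth 1 did (2.22%, 0.393 to 11.6%). The share in keratin-low cells of library 3 (0.4002%) covers cells of all depths (median 13574 UMIs), so it is not a like comparison. In those fibroblast-like cells *Gpnmb* had a UMI in 37.4%, *Atf3* in 9.77%, *Hbegf* in 5.599% and *Tmprss11e* in 0.391%. In the depth-matched cells described below these shares were 16.2%, 24.6%, 26.7% and 9.91%.

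The libraries held 147898790 to 413632222 UMIs in 10816 to 31646 barcodes, and each pair shared at most 0.913% of the barcodes of its smaller library, with no barcode that was a member in both. Members were deep cells, with median UMI counts of 19874, 25555 and 23844 in libraries 1, 2 and 3 against 12529, 16935 and 14239 in the other *Trp63*-positive cells. Each member was therefore matched in its library to a keratin-low *Trp63*-positive cell with 0 to 3 panel genes and nearly the same UMI count (matched medians 19874, 25557 and 23846). Median mitochondrial shares were 3.23%, 2.68% and 3.15% in members and 3.18%, 2.94% and 2.75% in matched cells. Doublet-like barcodes, scored against simulated doublets and kept in, made up 11.3%, 8.11% and 27.5% of members and 9.28%, 8.65% and 11.8% of matched cells. Library 3 thus had the larger doublet-like share among members, and its part in the results was not tested beyond leaving those barcodes out.

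The question asked of the counts was which genes outside the rule differed between members and other *Trp63*-positive cells of the same library. Counts were summed per library and group, giving 3 member sums and 3 comparison sums. Against depth-matched cells, 207 of 11064 genes outside the rule (1.87%) passed an adjusted p of 0.05 in edgeR's quasi-likelihood test with Benjamini-Hochberg adjustment, 58 higher in members (0.524%) and 149 lower (1.35%). Each of the 207 changed in the same direction in all 3 libraries, which passing a test on these same sums favours. Both sums of 1 library derive from 1 pool of animals, and with the library as a replicate block 966 genes passed (8.73%), 419 higher (3.79%) and 547 lower (4.94%). Without library 1 no gene of 11812 passed the unblocked edgeR test, and 574 passed with the block. In the unblocked test 778 of the 11812 had an unadjusted p under 0.05, against 1708 of 11064 with all 3 libraries. Without library 2, 11 genes passed, all 11 among the 207, and without library 3, 256 passed, 122 of them among the 207. The rule did not read these genes, but the panel was picked from earlier results on the same cells, so genes that vary with the panel from cell to cell are favoured by construction.

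Of the 12 named rises, *Dusp5* was the largest by fitted difference. *Dusp5*, whose product is a nuclear phosphatase that switches off ERK, stood at 24.1, 22.5 and 10.5 CPM in members of libraries 1, 2 and 3 and at 1.48, 3.18 and 0.808 CPM in matched cells (fitted log2 difference 3.15, SE 0.49, adjusted p = 0.0191). The groups did not overlap, but 1 UMI is worth 0.808 CPM in library 3, and without library 2 the difference was 3.82. *Plaur* (chr7:24161875-24175394), the receptor gene of the protease urokinase, whose promoter is printed above, read 149, 67.8 and 57.3 CPM against 15.7, 20.1 and 9.69 CPM (2.50, SE 0.40, adjusted p = 0.0213). It had a UMI in 60.8%, 47.0% and 37.3% of members and in 17.5%, 20% and 17.6% of matched cells. *Chit1* (chr1:134038972-134079278), the gene of a secreted chitinase, read 60.5, 32.2 and 71.9 CPM against 9.35, 12.3 and 8.08 CPM (2.34, SE 0.31, adjusted p = 0.0119). *Fscn1*, which encodes the actin-bundling protein fascin, read 27.1, 23.1 and 46.8 CPM against 4.43, 9.33 and 12.1 CPM (1.90, SE 0.36, adjusted p = 0.0349).

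The remaining 8 named rises had fitted log2 differences of 1.45 to 1.81. They were *Lipm*, a lipase gene of the late epidermis (1.81), *Tgm1*, the transglutaminase that crosslinks the cornified envelope (1.75), the IGF-binding protein gene *Igfbp2* (1.72), *Iffo2* (1.68), the orphan nuclear receptor and immediate-early gene *Nr4a1* (1.67), the RNase gene *Zc3h12a* (1.54), the monoglyceride lipase gene *Mgll* (1.48) and the tight junction gene *Cldn1* (1.45). All 12 rises and the 8 named falls also passed with the replicate block, in DESeq2 and with doublet-like barcodes left out, but 4 of the 12 rises and none of the 5 falls that could be tested passed without the block in the cells limited by *Tmprss11a* and *Nkx2-1* described below. Without library 1 all 20 kept their direction and none kept its call, and 6 kept it without library 2. With at most 25000 UMIs per cell 12 kept their call, with at least 3 panel genes 13 and with at least 5 panel genes 4.

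**Figure D3:**
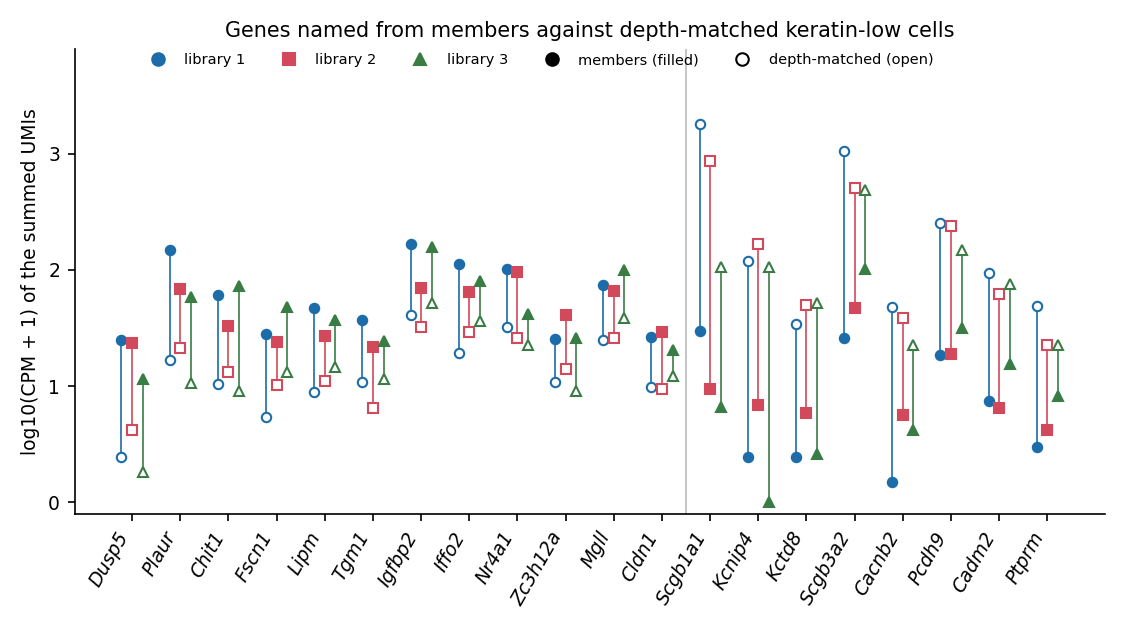
Summed expression, as log10 of CPM plus 1, of the 12 named rises (left) and 8 named falls (right) in members (filled) and depth-matched cells (open), with a line joining the groups of each of the 3 libraries. For *Dusp5*, *Plaur* and *Chit1* the member points lie above the matched points of every library, and for *Kcnip4* and *Pcdh9* they lie below.

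The summed level of 19 measured immediate-early genes was higher in the members of each library, at 4385, 4638 and 2959 CPM against 2478, 2962 and 2416 CPM in matched cells. Of these 19 (23 listed), 3 rose, *Klf4*, *Nr4a1* and *Ier3*, beside 0.524% of all genes, none fell and 17 had a positive difference. The list's median log2 difference was 0.96 against 0.00 over all genes, and with the block 10 rose, beside 3.79% of all genes. *Ier3*, an early gene that feeds back on ERK, read 82.2, 114 and 122 CPM against 39.9, 45.4 and 42.8 CPM (1.33, SE 0.16, adjusted p = 0.00984). *Egr1*, a zinc finger factor of the same class, read 574, 451 and 187 CPM against 88.1, 204 and 32.3 CPM. Its groups overlapped between libraries and its difference passed with the block (log2 2.01, adjusted p = 0.00115) but not without (adjusted p = 0.169). Of 12 measured AP-1 subunits (15 listed, *Atf3* and *Fosl1* not counted) none passed without the block and 6 rose with it, *Fos*, *Fosb*, *Jun*, *Junb*, *Jund* and *Maff*, and the median was 0.61. *Fos* read 387, 732 and 145 CPM in members and 119, 299 and 43.6 CPM in matched cells (block log2 1.56, adjusted p = 4.27e-05).

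The level of these genes differed among libraries in both groups. The *Fos* level in matched cells, which could carry up to 3 panel genes, was highest in library 2 and lowest in library 3. That is the same order as the share of members. In keratin-low cells with 0 panel genes the libraries lay closer, with *Fos* at 60.3, 70.7 and 59.8 CPM. *Jun* read 156, 168 and 172 CPM in those cells. The 12 AP-1 genes summed to 3467, 4392 and 1926 CPM in members and to 1532, 2219 and 1512 CPM in matched cells. The 13 heat shock genes, another group that tissue handling raises, summed to 3514, 3337 and 3485 CPM against 2550, 2803 and 2982 CPM, with a median log2 difference of 0.29. None of the 13 passed without the block and 4 rose with it, *Hspa4l*, *Hspb1*, *Dnajb1* and *Hspa1a*, beside 3.79% of all genes higher with the block. Cells were digested before capture, and the part of that step in the member counts was not tested.

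*Hbegf* was read by the rule and is not tested. No other ligand or receptor gene of the EGF family passed against depth-matched cells. Only 3 of 10 other EGF family ligands had enough counts to be tested, *Tgfa*, *Nrg2* and *Nrg4*, and none passed (median log2 0.14). *Tgfa* read 25.1, 24.2 and 20.2 CPM in members and 21.7, 20.1 and 27.5 CPM in matched cells, so the groups overlapped. Of the 7 receptor and *Lrig* genes none passed with or without the block. Against all other *Trp63*-positive cells, which were shallower, *Areg* and *Nrg4* rose and *Erbb4* fell with the block (adjusted p = 0.000528, 0.0211 and 3.74e-07), and *Lrig3* fell with the block in the restricted cells described below (log2 −0.47, adjusted p = 0.0308). *Egfr*, the receptor for HBEGF, read 381, 265 and 409 CPM against 302, 275 and 291 CPM (0.30, SE 0.16, adjusted p = 0.42). Among 12 measured ERK feedback genes (16 listed) 3 rose, *Dusp5*, *Dusp7* and *Ier3*, beside 0.524% of all genes, none fell, and the median was 0.28. None of 8 measured sheddase genes, which encode the proteases that release such ligands and their regulators, passed.

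*Lrig1* itself, whose locus marked these cells, was not higher in members. It read 65.4, 76.3 and 96.9 CPM in members and 86.1, 93.3 and 110 CPM in matched cells, lower in 3 of 3 libraries, with overlapping groups (fitted log2 −0.25, SE 0.15, adjusted p = 0.46). A *Lrig1* UMI was found in 70.1%, 81.1% and 80.4% of members and in 72.2%, 81.1% and 80.4% of matched cells, a mean difference of −0.687 percentage points ± 1.19 (SD, n = 3 libraries). Against all keratin-low cells without depth matching the difference was 16.4 points. At least 2 *Lrig1* UMIs were found in 33.0%, 48.6% and 62.7% of members and in 48.5%, 57.3% and 58.8% of matched cells. That share was lower in members of libraries 1 and 2 and higher in library 3 (mean −6.73 points ± 9.83, SD, n = 3 libraries). With 3 pairs the smallest exact two-sided permutation p is 0.25, so this exact test could not reach 0.05 for any share here.

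Among genes of adhesion, migration and matrix remodelling, those that passed were higher in members. Of 29 measured (38 listed) 5 rose, *Plaur*, *Fscn1*, *Itga3*, *Itga6* and *Mmp14*, and none fell (median log2 0.41), beside 0.524% of all genes higher and 1.35% lower. With the block 12 rose and 2 fell, *Actn1* and *Fn1*, beside 3.79% and 4.94%. *Itga6*, the laminin-binding integrin chain of the hemidesmosome, read 632, 519 and 573 CPM against 305, 309 and 376 CPM (0.83, SE 0.14, adjusted p = 0.0221), with no overlap. *Itga3*, another laminin-binding integrin chain, read 197, 166 and 144 CPM against 83.6, 94.1 and 106 CPM (0.88, SE 0.16, adjusted p = 0.028). *Mmp14*, a membrane-bound matrix protease, read 137, 120 and 127 CPM against 90.5, 78.9 and 70.3 CPM (0.70, SE 0.14, adjusted p = 0.0444). Each of the 3 was higher in every member sum than in any matched sum. Passing a test on these same sums favours such a gap, and the share of all genes with it was not counted. Of the wound keratins 2 of 4 were measured. *Krt6a* read 228, 160 and 150 CPM against 44.3, 29.1 and 104 CPM and passed with the block (log2 1.87, adjusted p = 0.00327) but not without (adjusted p = 0.0628), and *Krt17* passed in neither.

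Genes of damage-associated transitional epithelium, a state described between basal or progenitor cells and their mature progeny after injury, did not move as 1 block. Of 19 measured, those that rose included *Ly6a*, *Clu* and *Emp1*, and none fell, and with the block 11 rose and 4 fell (median 0.59), beside 3.79% and 4.94% of all genes. *Ly6a*, which encodes the surface protein SCA-1, read 1098, 1031 and 936 CPM against 392, 359 and 441 CPM (1.40, SE 0.14, adjusted p = 0.00387). It was present in 98.4% or more of members of each library and in 80.4 to 88.2% of matched cells. *Krt8* and *Krt18*, simple-epithelial keratins that are among the genes that define that state, ran the other way. *Krt18* read 77.2, 106 and 63.0 CPM in members and 217, 251 and 124 CPM in matched cells (block log2 −1.23, adjusted p = 0.000212, unblocked adjusted p = 0.0793), and *Krt8* also fell with the block.

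Squamous and basal genes that passed against depth-matched cells were higher in members. The groups were matched on depth and not on keratin level. Of the rule, *Krt14* read 864, 691 and 735 CPM in members and 211, 323 and 479 CPM in matched cells. *Krt5* overlapped, at 961, 731 and 1519 CPM against 803, 777 and 1379 CPM. Of 21 measured squamous differentiation genes (40 listed) 2 rose, *Tgm1* and the desmosomal cadherin gene *Dsg3*, and none fell, with a median of 0.43 and 11 rises with the block (0.524% of all genes rose, and 3.79% with the block). *Dsg3* read 201, 230 and 194 CPM against 113, 125 and 111 CPM (0.87, SE 0.14, adjusted p = 0.0199). *Sprr1a*, a cornified envelope precursor, was uneven among libraries, at 34.4, 6.78 and 139 CPM against 15.3, 0.636 and 20.2 CPM, and passed with the block only (adjusted p = 0.00223). Of 24 basal cell genes, 1 rose without the block, *Itga6*, and 10 with it (median 0.42), and none fell. In other comparisons some fell, the squamous genes *Spink5*, *Krtdap* and *Calm4* against all other *Trp63*-positive cells with the block (*Spink5* also without), and *Pkp1* and the basal gene *Sox2* in the restricted cells with the block. The summed suprabasal squamous markers, *Krt13* of the rule among them, were 1196, 659 and 1069 CPM in members and 479, 436 and 587 CPM in matched cells. *Prss22*, a serine protease gene, was the 1 riser among 10 measured relatives of *Tmprss11e*, at 79.7, 66.6 and 67.0 CPM against 35.9, 32.2 and 35.5 CPM (1.08, SE 0.14, adjusted p = 0.0103), and with the block *Tmprss11b* and *Tmprss11g* rose as well.

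**Figure D4:**
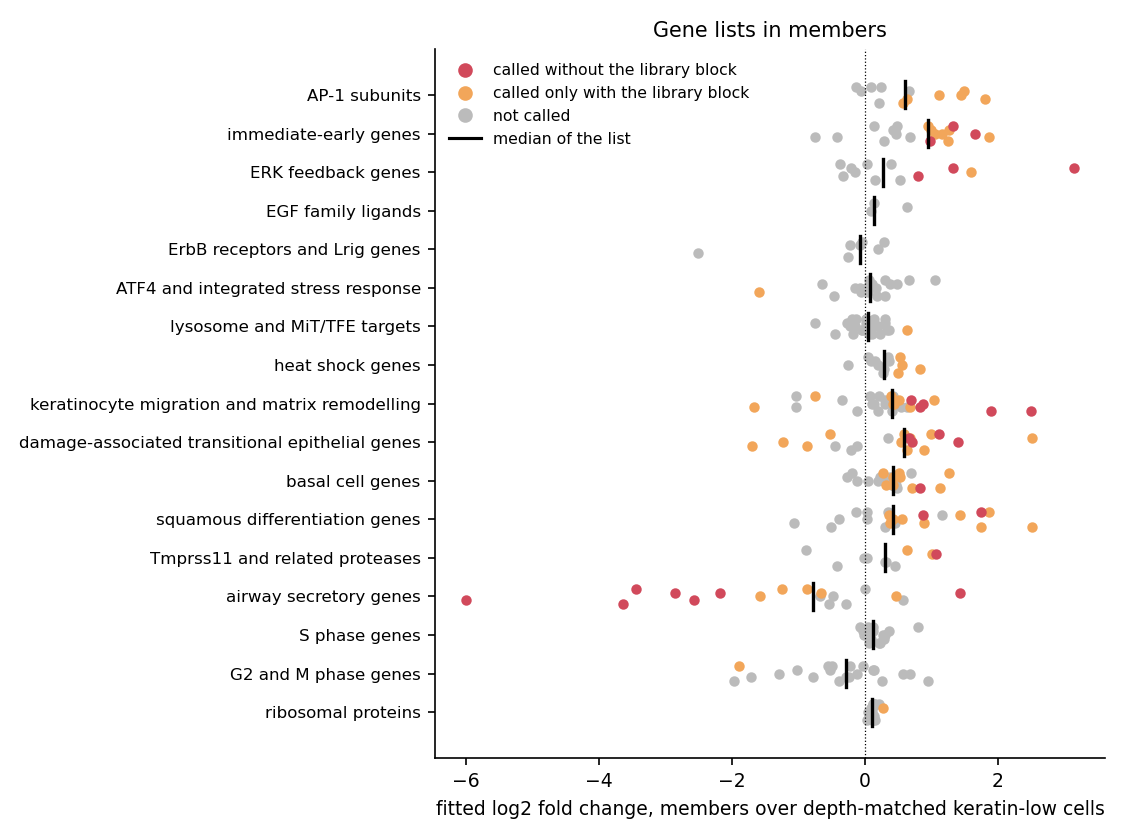
Fitted log2 difference of members over depth-matched cells for every measured gene of the lists shown (points, genes of the rule left out), with the median of each list as a black bar. Red points passed without the replicate block, orange points with it alone, and gray points in neither. The median is −0.77 for airway secretory genes and 0.96 for immediate-early genes, against 0.00 over all genes.

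The largest fall was that of *Scgb1a1* (without library 2 it was that of *Kcnip4*, −6.81 against −5.66), and 2 of the 8 named falls, *Scgb1a1* and *Scgb3a2*, are airway secretory genes. Of 18 measured airway secretory genes (23 listed) 6 fell, *Bpifa1*, *Scgb1a1*, *Scgb3a2*, *Nkx2-1*, *Cldn10* and *Aldh1a7*, and 1 rose, the sodium channel gene *Scnn1b*, with a median of −0.77 (with the block 10 fell and 2 rose), beside 1.35% of all genes lower and 0.524% higher (with the block 4.94% and 3.79%). *Bpifa1*, which encodes a secreted airway defence protein, read 1447, 1481 and 1844 CPM in members and 13518, 8421 and 6584 CPM in matched cells (−2.56, SE 0.28, adjusted p = 0.00588). Keratin-low *Trp63*-positive cells with 0 panel genes read 7829, 4984 and 5093 CPM of it, and those with 3 read 4162, 2231 and 5028 CPM. The matched sums lay above both, so the size of the *Bpifa1* fall depends on the matched cells drawn. It had a UMI in 100%, 94.1% and 98.0% of members and in 100%, 91.4% and 98.0% of matched cells. *Nkx2-1*, the transcription factor gene of lung, trachea and thyroid epithelium, read 12.8, 14.2 and 20.2 CPM against 81.2, 61.7 and 68.7 CPM (−2.18, SE 0.19, adjusted p = 0.00204). *Scgb1a1*, the club cell secretoglobin gene, read 29.0, 8.48 and 5.65 CPM against 1797, 868 and 104 CPM (−6.00, SE 1.03, adjusted p = 0.0263). Over all keratin-low *Trp63*-positive cells it read 304, 319 and 62.3 CPM with 0 panel genes and 33.0, 10.8 and 7.35 CPM with 3. The matched sum of each library lay above both, so the size of this fall depends on the matched cells drawn. *Scgb1a1* had a UMI in 44.3%, 19.5% and 13.7% of members and in 43.3%, 25.4% and 17.6% of matched cells, so the groups differed in UMIs per positive cell more than in the share of positive cells. The other named falls were *Kcnip4* (−5.11), *Kctd8* (−3.68), *Scgb3a2* (−3.63), *Cacnb2* (−3.45), *Pcdh9* (−3.33), *Cadm2* (−3.28) and *Ptprm* (−3.02), a set of channel-associated, adhesion and secretory genes. These folds depend on single libraries. Without library 2 *Kcnip4* was −6.81, *Kctd8* −4.66 and *Cacnb2* −4.42, without library 1 *Scgb3a2* was −2.79, *Cacnb2* −2.80 and *Ptprm* −2.23, without library 3 *Scgb3a2* was −4.35, and *Kcnip4* was at 0 in the members of library 3. *Pcdh9*, a protocadherin gene, read 17.7, 17.8 and 30.7 CPM against 250, 237 and 149 CPM (adjusted p = 0.00179).

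Other marker sums moved with these falls. Secretory markers, *Scgb3a1* of the rule among them, summed to 1602, 1567 and 1997 CPM in members and 16520, 10017 and 7209 CPM in matched cells. In all other *Trp63*-positive cells they summed to 7250, 4050 and 4885 CPM, between the 2 groups in each library. Thyroid markers summed to 27.6, 25.4 and 21.0 CPM against 279, 396 and 20.2 CPM, and gland acinar markers, *Ltf* of the rule among them, to 78.2, 119 and 48.5 CPM against 909, 701 and 55.7 CPM. Macrophage markers summed to 884, 1172 and 56.5 CPM in matched cells. The matched cells of libraries 1 and 2 thus held more of these than those of library 3, while secretory markers were high in all 3. Fibroblast markers, *Dcn* of the rule among them, summed to 1242, 176 and 458 CPM in matched cells, above the members of each library. Endothelial markers summed to 65.4, 1.91 and 3.23 CPM there. In matched cells *Ltf* alone read 876, 663 and 40.4 CPM and *Dcn* alone 1002, 173 and 395 CPM. Genes of the rule thus made up most of the gland acinar and fibroblast sums there, which are a description. With cells of 2 or more markers of a non-epithelial class (macrophage, fibroblast, endothelial and others) left out of both groups, 229 genes passed, 70 higher and 159 lower. Of the 20 named genes 18 kept their call there, 1 kept its direction without it and none reversed. The part of these cell types in the falls was not tested beyond this and the restriction below.

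Members differed from matched cells in which epithelium's genes they carried. A UMI of *Tmprss11a*, a serine protease gene of squamous epithelium, was found in 92.8%, 91.9% and 96.1% of members (mean 93.6% ± 2.21, SD, n = 3 libraries) and in 51.5%, 75.7% and 76.5% of matched cells (67.9% ± 14.2). A UMI of *Nkx2-1* was found in 12.4%, 14.6% and 19.6% of members (15.5% ± 3.71) and in 52.6%, 45.4% and 49.0% of matched cells (49.0% ± 3.59). The groups did not overlap in either gene. In the fibroblast-like cells with at least 15000 UMIs, which should lack both, *Tmprss11a* was found in 5.08% and *Nkx2-1* in 4.30%. Members with *Tmprss11a* and without *Nkx2-1* made up 83.5%, 80.5% and 76.5%, against 35.1%, 49.2% and 47.1% of matched cells, and 3, 6 and 0 members had *Nkx2-1* without *Tmprss11a*.

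To compare like with like, and chosen after these values were seen, both groups were limited to cells with a *Tmprss11a* UMI and no *Nkx2-1* UMI (81, 149 and 39 members, matched again on UMI count). Then 40 of 10595 genes (0.378%) passed, 17 higher (0.16%) and 23 lower (0.217%), and 462 (4.36%) with the block, 248 higher (2.34%) and 214 lower (2.02%). *Plaur* (log2 2.70, adjusted p = 0.0206), *Dusp5* (3.55, adjusted p = 0.0308), *Ier3* (1.36, adjusted p = 0.0149), *Ly6a* (1.11, adjusted p = 0.0308), *Prss22* (1.07, adjusted p = 0.0149), *Itga3* (0.88, adjusted p = 0.0461) and *Klf4* (0.87, adjusted p = 0.028) still rose, as did *Mgll* (1.24, adjusted p = 0.025) and *Iffo2* (1.35, adjusted p = 0.0308). *Cdkn1a*, the cell cycle inhibitor gene p21, rose in this comparison (1.32, adjusted p = 0.0435), whereas it passed with the block only before it (adjusted p = 0.0168). The other 8 named rises passed with the block but not without. *Tgm1* kept nearly its whole difference (1.70, adjusted p = 0.0563), and *Cldn1* was 1.16 (0.195) and *Nr4a1* 1.19 (0.271). The differences of the other 5 were smaller by over 1.5 times in fold, at 1.59 for *Chit1* (0.0608), 1.05 for *Lipm* (0.0788), 1.25 for *Fscn1* (0.136), 1.016 for *Igfbp2* (0.159) and 0.92 for *Zc3h12a* (0.236). Of the other rises named above, *Mmp14* (0.83, adjusted p = 0.0702), *Itga6* (0.62, 0.0907), *Dsg3* (0.43, 0.306), *Clu* (0.85, 0.146) and *Emp1* (0.59, 0.178) also passed with the block but not without. *Dusp7* (0.47, adjusted p = 0.298) and *Scnn1b* (0.82, 0.262) passed in neither. *Bpifa1* lay just over the threshold (−1.79, adjusted p = 0.05) and fell with the block (adjusted p = 0.000229), whereas *Scgb1a1*, the largest fall above, no longer did (0.08, adjusted p = 0.992). *Cadm2* went to −0.77 (adjusted p = 0.674, and 0.387 with the block) and *Scgb3a2* to −1.55 (0.432, and 0.127 with the block). *Pcdh9* went to −2.20 and *Kctd8* to −2.89, passing with the block (adjusted p = 0.0151 and 0.0176) but not without, and *Kcnip4*, *Cacnb2* and *Ptprm* had too few counts to be tested. With 5 matched cells per member in the same restricted cells, and the block, *Cadm2* (−1.66, adjusted p = 0.00912), *Scgb3a2* (−2.76, adjusted p = 4.66e-05), *Kcnip4* (−3.50, adjusted p = 0.00642), *Cacnb2* (−3.23, adjusted p = 0.00549) and *Ptprm* (−2.29, adjusted p = 0.0351) fell, and 18 of the 20 named genes kept their call, *Scgb1a1* and *Cldn1* being the others. Without the block 4 of the 20 kept it there. The median of the immediate-early list was 0.87 and that of the AP-1 list 0.54, against 0.01 over all genes. The median of the airway secretory list was −0.52, with 1 of 15 measured genes lower without the block, *Atp6v0a4*, and 6 with it.

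Other lists are given as counts, beside the 0.524% of all genes that rose and the 1.35% that fell. With the block 3.79% of all genes rose and 4.94% fell, and calls with the block stand beside these shares. None of the measured genes of the ATF4 and integrated stress response list (18 measured of 25, median 0.09), of the NRF2 targets (16, 0.18), of the lysosomal list (26 of 31, 0.05) or of the NF-kB feedback and STAT3 list (16 of 19, 0.44) passed without the block. With the block *Nupr1* fell in the first, *Tkt* rose and *Taldo1* fell in the second, *Fnip2* rose in the third, and *Bcl3*, *Nfkbiz*, *Osmr* and *Socs3* rose in the fourth. Of 18 measured p53 targets *Pmaip1*, the gene of the pro-apoptotic protein NOXA, rose (2.19, adjusted p = 0.0258), and with the block *Cdkn1a*, *Perp*, *Plk3* and *Trp53inp1* rose too. In the restricted cells *Pmaip1* passed neither without the block (1.34, adjusted p = 0.242) nor with it (0.0613). Of 17 hypoxia and glycolysis genes *Hk2* (1.06, adjusted p = 0.0184) and *Pfkp* (0.84, adjusted p = 0.0258) rose, and *Eno1* with the block. In the restricted cells *Pfkp* passed with the block only (0.81, unblocked adjusted p = 0.0907) and *Hk2* in neither (0.48, adjusted p = 0.363). *Tgif1* was the 1 riser of 15 TGF-beta genes (0.56, adjusted p = 0.0433), and with the block *Tgfbr2* rose and *Bambi* fell. In the restricted cells *Tgif1* passed with the block only (0.61, unblocked adjusted p = 0.103), and the median of the list was −0.01. Few cytokines or chemokines (5 of 29) and acute-phase genes (6 of 21) had the counts to be tested, and none passed without the block, so this depth says little of them. With the block *Cxcl16* rose and *Il33* fell. None of 13 YAP/TAZ targets and 14 Notch genes passed without the block, and with it *Ccn1*, *Crim1* and *Tead4* rose among the first and *Dll1* rose and *Hes1* fell among the second.

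Cell cycle genes gave no call in the unblocked test, for 16 S phase genes (median 0.13) or 21 G2 and M phase genes (median −0.29). *Mki67* or *Top2a*, genes of dividing cells, had a UMI in 10.3%, 9.73% and 25.5% of members and in 5.15%, 6.49% and 13.7% of matched cells. The share was higher in members in 3 of 3 libraries, but the groups overlapped and library 3 was highest in both. Ribosomal protein genes (22, median 0.11) and mitochondrially encoded genes (13, median 0.04) had no call without the block. With it *Ube2c* of the G2 and M phase list fell and *Rplp0* of the ribosomal list rose, beside 4.94% of all genes lower and 3.79% higher.

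Against all other *Trp63*-positive cells, keratin-high cells included, 264 of 17007 genes outside the rule passed (1.55%), 52 higher (0.306%) and 212 lower (1.25%), and 2318 with the replicate block (13.6%), 848 higher (4.99%) and 1470 lower (8.64%). This comparison shares its member sums with the one above, and 138 genes were called in both. These other cells were shallower, and when they were cut to 1 cell per member, matched on UMI count, 16 genes passed. Depth and cell number changed together in that setting. Of the 264 calls 230 could be tested there, 229 kept their sign and 216 had an unadjusted p under 0.05. *Dusp5* (log2 2.79, adjusted p = 0.0282), *Plaur* (2.39, adjusted p = 0.0329) and *Lipm* (1.63, adjusted p = 0.0145) were the largest rises here. Others among the 12 largest rises here were *Trim16* (1.48), *Scnn1b* (1.39), *Stx11* (1.28), *Acsm3* (1.27), *Ier3* (1.23), *Prss22* (1.22), *Ly6a* (1.20), *Plac8* (1.20) and the ETS factor gene *Elf4* (1.18). *Acsm3*, a mitochondrial acyl-CoA synthetase gene, read 53.1, 59.1 and 40.4 CPM against 22.9, 24.7 and 18.9 CPM (SE 0.19, adjusted p = 0.0206). *Slc7a11*, the cystine transporter gene of both the ATF4 and the NRF2 list, was the 1 riser of each. The largest falls here were *Kcnip4* (−3.88), *Cacnb2* (−3.68), *Cadm2* (−3.65) and *Pcdh9* (−3.61), and the named falls also held *Dmbt1* (−3.57) and *Wfdc18* (−3.29), whereas *Scgb1a1* and *Scgb3a2* were not among them. The order and size of these falls depend on single libraries. Without library 2 *Kcnip4* was −5.71, *Cacnb2* −4.88 and the named fall *Kctd8*, −3.57 with all 3, was −4.79. Without library 1 the largest was *Dmbt1* (−4.15, against −3.40 for *Kcnip4*) and *Ptprm* went from −3.46 to −2.86, and without library 3 the largest was *Cadm2* (−4.06).

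The same genes varied by degrees with the number of panel genes in a cell. Over keratin-low *Trp63*-positive cells with 0, 1, 2, 3 and 4 to 7 panel genes, *Plaur* in library 1 read 8.63, 14.9, 24.7, 58.1 and 149 CPM, and in library 3 it read 5.96, 9.91, 14.5, 32.6 and 57.3 CPM. *Ly6a* in library 2 read 215, 365, 508, 731 and 1031 CPM. *Nkx2-1* ran the other way, at 92.3, 59.4, 43.1, 27.7 and 12.8 CPM in library 1 and 120, 69.7, 44.02, 28.4 and 20.2 CPM in library 3. *Lrig1* stayed between 83.5 and 111 CPM in cells with up to 3 panel genes in all libraries and lay at 65.4 to 96.9 CPM in members. *Fos* rose to 732 CPM in library 2, whereas in library 3 it was 177 CPM at 3 panel genes and 145 CPM in members. Cells with more panel genes were also deeper, from a median of 11417 UMIs at 0 panel genes to 20734 at 3, so these values are a description with no test.

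**Figure D5:**
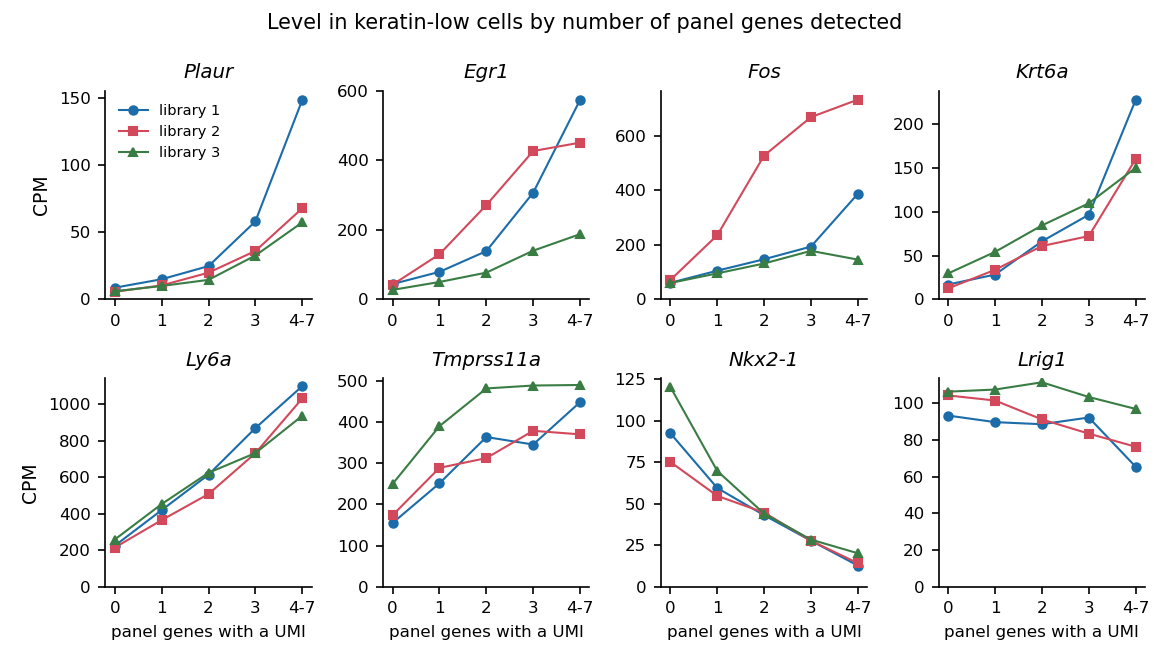
Summed expression (CPM, linear axis) of 8 genes in keratin-low *Trp63*-positive cells by the number of panel genes detected (0, 1, 2, 3 and 4 to 7), 1 line for each of the 3 libraries. *Plaur* and *Ly6a* climb from bin to bin in each library and *Nkx2-1* declines.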

How the data were processed

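Per the labels, libraries were made with a droplet 3′ kit and read with Cell Ranger 8.0.1 on the mouse build mm39 (GRCm39), and the authors deposited raw UMI counts per gene and barcode, not normalized. Counts of the cells of a group were summed per library and tested with edgeR 4.0.16 (quasi-likelihood, TMM scaling, filterByExpr, R 4.3.3) with p-values adjusted by Benjamini-Hochberg over every gene in the fit. The 14 genes of the rule stayed in the fit, are left out of printed counts and get no p. P-values without the block measure the spread between the sums of the 3 pools. With the block they measure the spread of the difference within a pool. Both use spread estimates that draw on all genes. Fits were tested on simulated data. The members and gene lists were chosen with earlier results of these data known. Named genes were the 12 largest rises and 8 largest falls among genes past an adjusted p of 0.05, whose mean reached 10 CPM, with 1 direction in all libraries, and up to 4 highly expressed genes of a list plus those that moved. Cell classes other than members are named from at least 3 markers. Doublet-like barcodes (0.4% per 1000 barcodes of a library, ranked by simulated doublets among nearest neighbours) were kept, and leaving them out was an alternative.

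The replicate number marks a shared pool of animals in both groups of a comparison. Deviations of the sums of a library from their group means correlated at 0.252, 0.515 and 0.316 in the matched comparison and at 0.266, 0.389 and 0.353 in the other, so the numbers pair the sums. Alternatives were the replicate block, other scaling, no filter, DESeq2 1.42.0, each library left out, other limits on cells and other comparison cells. Restricted, 0-panel and 5-cell matching and the block without a library were added after seeing the data. A result for 1 listed gene is not reported here.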

Additional observations from a re-analysis of the deposited data

How the results depend on the processing

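All 20 genes named against depth-matched cells kept their direction in every setting tried in which they were tested except *Scgb1a1*, which changed to 0.083 (log2) with *Tmprss11a*-positive, *Nkx2-1*-negative cells in both groups and to 0.21 with the replicate block as well. The mean share of members became 6.12% with 3 panel genes as the limit and 0.509% with 5. Against depth-matched cells, where 207 genes passed, 966 passed with the replicate block, 364 in DESeq2, 570 with no filter on low counts, 383 without doublet-like barcodes, 603 without depth matching, 770 against cells with 0 panel genes, 137 with at least 3 panel genes and 27 with at least 5. Leaving out 1 library gave 0 to 256, and 463, 574 and 1658 with the block. Limited to *Tmprss11a*-positive, *Nkx2-1*-negative cells, 40 passed, 462 with the block, and with 5 matched cells per member 30 and 556. Against other *Trp63*-positive cells, where 264 passed, the counts were 2318 with the replicate block, 1023 in DESeq2, 523 without doublet-like barcodes, 154 with at least 3 panel genes, 16 when matched on UMI count, 18 to 35 without 1 library, and 1192, 1458 and 2639 without 1 library and with the block. Beyond the counts and calls given with and without it, the block changed the call of none of the 20 named genes of either comparison. Other scalings gave 205 and 213 genes against matched cells and 234 and 261 against the others. The difference in *Lrig1*-positive share, −0.687 points, was 0.902 with at most 25000 UMIs, 0.639 without doublet-like barcodes, −4.63 with mixed barcodes kept, −3.44 and −3.47 with at least 3 and at least 5 panel genes, −2.50 in the restricted cells, −2.99 after thinning to 5000 UMIs and 16.4 without matching. The causes were not tested. In 254 of 333 members fewer than 4 panel genes reached 2 UMIs.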
